A study of Mus musculus with 6 samples.

Results

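Interleukins are the secreted messengers through which immune and stromal cells address each other. The genes described here were every array feature, control spots left out, whose deposited gene name was Il followed by a digit. The rule gave 81 gene names, of 27962 names on the array, carried by 121 probes of 60 bases each. Symbols with an r after the number were counted as receptors (41 genes) and the other 40 as 37 ligands and 3 genes that are no ligand. Those 3 were Il6st, the signal-transducing subunit known as gp130, Il18bp, a soluble protein that binds the Il18 cytokine, and Il4i1, an amino acid oxidase. The symbol rule also put 2 antagonists among the others: Il1rn, which blocks the Il1 receptor, counted with the receptors, and Il1f5, which blocks the receptor of the Il36 cytokines, counted with the ligands. Because the rule reads the array's own names, Il33, which the array lists under a clone name, and Il34 were outside it. Of the 81 genes, 4 have another symbol in the RefSeq names used here (GRCm38.p6): Il28 is Ifnl3, Il28ra is Ifnlr1, Il8ra is Cxcr1 and Il8rb is Cxcr2.

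The study asked what the loss of adrenal hormones does to the heart. Male C57BL/6 wild-type mice were adrenalectomized or sham-operated at 1 month of age, and total RNA of the heart was taken 6 months later. Another label calls the animals 6 months old, so their age at collection is not settled. Each group held 3 biological replicates, each on its own one-colour array, and no hormone or salt replacement is given in the sources used here.

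An interleukin binds a receptor on the surface of the target cell, and most receptors pair a ligand-specific chain with a chain shared by several cytokines. The Il1 family signals through Myd88 and Irak kinases to NF-kB, the Il17 family through Traf3ip2 and Traf6, and most of the others through Jak kinases and Stat factors. Glucocorticoids, hormones of the adrenal cortex, are known to lower the transcription of many cytokine genes, and several interleukin receptors are expressed by heart muscle cells, fibroblasts and endothelium as well as by leukocytes.

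The probe sequences of the genes with the smallest p-values on the higher side, of a gene whose transcript variants had separate probes, and of one receptor whose probe does not tell it from its paralog are given here, 5′ to 3′ in lower case. They show what each value measured, and no part is capitalised because no motif was searched. The positions are those of the array's design on the mouse build mm7, all on the plus strand. An annotation of that build was not used, so exons and untranslated regions are not stated. The Il17c probe maps to chr8:121064392-121065352, a span of 961 bases that is longer than the probe itself. The Il1f8 probe maps to chr2:24167430-24167489, the Il18r1 probe to chr1:40741012-40741071 and the Il21r probe to chr7:121729195-121729254. The brighter Il13ra1 probe maps to chrX:30928921-30928980 and the other to chrX:30929922-30929981. The Il1rl1 probes map to chr1:40705585-40705644 for transcript variant 1 and to chr1:40688351-40688410 for transcript variant 2. The Il11ra1 probe maps to chr4:41907660-41907719.
Il17c: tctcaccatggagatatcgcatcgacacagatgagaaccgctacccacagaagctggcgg
Il1f8: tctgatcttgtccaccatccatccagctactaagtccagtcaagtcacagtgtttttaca
Il18r1: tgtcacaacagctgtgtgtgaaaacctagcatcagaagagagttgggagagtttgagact
Il13ra1, brighter probe: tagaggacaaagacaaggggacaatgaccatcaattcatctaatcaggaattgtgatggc
Il13ra1, other probe: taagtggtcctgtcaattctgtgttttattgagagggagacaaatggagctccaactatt
Il21r: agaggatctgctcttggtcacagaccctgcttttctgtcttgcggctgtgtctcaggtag
Il1rl1, variant 1: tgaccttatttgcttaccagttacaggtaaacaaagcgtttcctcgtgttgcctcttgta
Il1rl1, variant 2: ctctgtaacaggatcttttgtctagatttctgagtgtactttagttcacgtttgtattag
Il11ra1: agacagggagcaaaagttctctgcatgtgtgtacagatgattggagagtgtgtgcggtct

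Levels are log2 signals relative to the 75th percentile of their own array, so 0 is that percentile, and a difference is adrenalectomized minus sham. They are not comparable between genes, because each probe has its own response. The scanner marked 57.7 to 66.8% of spots as well above background on each array, and this flag is what "above background" means throughout. The 3 sham arrays and adrenalectomized replicate 1 were on slide 1, and adrenalectomized replicates 2 and 3 on slide 2. The median local background was 69 to 71 intensity units on slide 1 and 49 to 49.5 on slide 2. Over all 16949 genes tested, limma called 5 higher (0.0295%) and 2 lower (0.0118%) at an adjusted p under 0.05, and the median difference was 0.03.

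Receptors were read in heart more often than ligands. On all 6 arrays, 23 of 41 receptor genes had a probe above background, against 8 of 37 ligand genes, and Il6st, Il18bp and Il4i1 were all above it as well. The share of all genes above background on all 6 arrays was 54.7%, so the receptors were near it and the ligands below it. A gene was counted when any of its probes was above background, and more receptors than ligands had several probes. The ligands were Il13, Il15, Il16, Il17d, Il18, Il24, Il27 and Il28. Il13 was close to the limit: on sham replicate 2 its level was -4.13, where the lowest level of any probe above background was -4.15. Another 15 ligands and 11 receptors were above background on some arrays, and 14 ligands and 7 receptors on none. The ligands on no array were Il2, Il3, Il5, Il6, Il9, Il10, Il12b, Il17a, Il17f, Il1f5, Il20, Il21, Il23a and Il31. That set holds many of the classical products of activated T cells, together with Il6, the main inducer of the acute-phase response, and Il10, which restrains inflammation. The receptors on no array were Il12rb2, Il13ra2, Il18rap, Il1r2, Il22ra2, Il5ra and Il8ra. Il1r2 and Il13ra2 are decoy receptors and Il22ra2 a soluble one, while Il18rap is the accessory chain of the Il18 receptor. A spot that is not well above background does not show that a transcript is absent.

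Counted by array, 40, 37 and 39 interleukin-family genes were above background in sham hearts and 45, 49 and 49 in adrenalectomized hearts. The shares of all genes above background were 59.9, 58.1 and 59.9% in sham hearts and 60.7, 66.8 and 63.2% in adrenalectomized hearts. Adrenalectomized replicate 1, on the same slide as the sham arrays, lay between the other adrenalectomized arrays and the sham arrays. Of the 81 genes, 21 were above background on more adrenalectomized than sham arrays (25.9%) and 2, Il17b and Il1a, on fewer (2.47%). Over all 28785 genes the corresponding shares were 12.1% and 3.16%. One of the 21, Il27ra, was counted only because its spot on sham replicate 1 was an outlier flag. Local background differed between the slides, and its part in these counts was not tested.

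**Figure D1:**
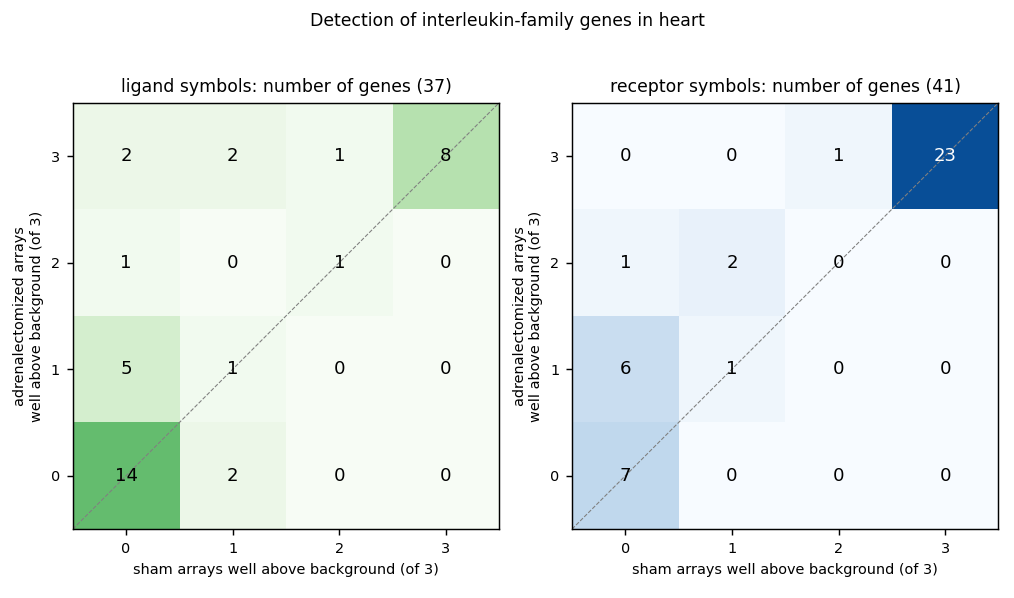
Number of ligand symbols (left, 37 genes) and receptor symbols (right, 41 genes) by how many of the 3 sham arrays (x axis) and 3 adrenalectomized arrays (y axis) had a probe well above background. Cells above the dashed diagonal hold genes read on more adrenalectomized arrays, and the fullest cells are the 23 receptors read on all arrays and the 14 ligands read on none.

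A probe was tested when it was above background on all 3 arrays of either group, and each gene was represented by its tested probe of highest mean. That left 40 of the 81 genes: 13 ligands, 24 receptors and the 3 others. None was called at an adjusted p under 0.05 in either direction, beside the 0.0295% and 0.0118% of all genes. A normexp correction on the local background, which calls 4566 of all genes lower, called 17 of the 40 lower. Array weights, which call 125 of all genes higher and 178 lower, called 2 higher. At an unadjusted p under 0.05, limma gave 5 higher genes (Il17c, Il1f8, Il18r1, Il13ra1 and Il21r), beside 6.27% of all genes tested, and 0 lower, beside 5.99%. Without adrenalectomized replicate 2 the counts were 3 higher and 0 lower, beside 4.92% and 4.38% of all genes. Without sham replicate 3 they were 4 and 2, beside 5.73% and 8.68%, and without adrenalectomized replicate 1 they were 5 and 1, beside 5.88% and 4.49%. All values of one group lay above all of the other for 9 of the 40 genes on the higher side, beside 10.4%, and for 1 on the lower side, Il1r1, beside 7.95%. The median difference was 0.09 for the 13 ligands and 0.14 for the 24 receptors, beside 0.03 for all genes. Of the 40 genes, 28 had a higher and 12 a lower value, where 56.6% of all genes had a higher one. Of the 40, 6 passed the filter through the adrenalectomized group alone and none through the sham group alone. These are Il17c, Il1f8, Il12a, Il25, Il1b and Il27ra, and for all but Il27ra the filter itself favours a higher adrenalectomized value. Il27ra missed the sham group only because its spot on sham replicate 1 was an outlier flag. Among the 34 genes whose probe was above background on all 6 arrays, the median difference was 0.11 and 7 lay wholly higher, beside a median of 0.02 and 9.61% over the 15682 genes of that kind.

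**Figure D2:**
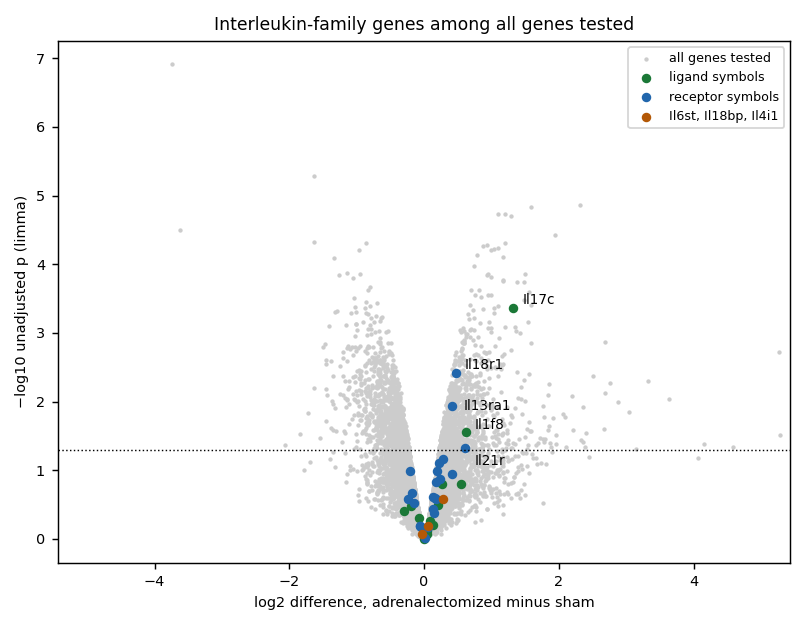
Each point is a gene: the x axis is the log2 difference, adrenalectomized minus sham, and the y axis minus log10 of the unadjusted limma p, with the dotted line at 0.05. Only 5 interleukin-family genes lie above the line, all to the right, and none is among the 7 genes called after adjustment.

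Among the tested ligands, Il17c had the largest fitted difference. Il17c is an epithelial member of the Il17 family that acts through the receptor chains Il17re and Il17ra. Its level was -4.63, -4.80 and -5.16 in the sham hearts and -3.94, -3.36 and -3.34 in the adrenalectomized hearts. Every adrenalectomized array lay above every sham array, and the 2 arrays of slide 2 were the highest. The sham mean was -4.87 ± 0.27 (SD, n = 3) and the adrenalectomized mean -3.54 ± 0.34 (SD, n = 3), a difference of 1.32 (SE 0.21, limma adjusted p = 0.133). None of the sham arrays read the gene above background and all 3 adrenalectomized arrays did, so the fold is a rough figure: 1.84-fold higher. This figure sets the adrenalectomized mean against the higher, per array, of the sham signal and the lowest signal that was still above background. On slide 1 alone, where only adrenalectomized replicate 1 stands against the sham arrays, the figure was 1.40-fold. Spots brighter than that lowest signal can still miss the flag, as those of Il1f6 did on the sham arrays. These folds are therefore no strict lower limits. With slide as a block the difference was 0.93 (adjusted p = 0.363). With array weights, which call 125 of all genes higher, it was 1.17 (adjusted p = 0.0384). With a normexp correction on the local background it turned to -0.73. The receptor chains of Il17c differed less: Il17ra by 0.19 (SE 0.10, adjusted p = 0.494) and Il17re by 0.13 (SE 0.13, adjusted p = 0.724).

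Il1f8, an Il36 cytokine that activates Il1rl2 in skin and other barriers, was read the same way. Its level was -4.54, -4.57 and -5.18 in the sham hearts and -4.24, -3.81 and -4.39 in the adrenalectomized hearts. The groups did not overlap, but sham replicate 1 and adrenalectomized replicate 3 lay close together. The means were -4.76 ± 0.36 and -4.15 ± 0.30 (SD, n = 3 each), a difference of 0.62 (SE 0.22, adjusted p = 0.357), and no sham array was above background. The rough fold, formed as for Il17c, was 1.21-fold higher and is no strict lower limit either. The normexp correction turned the difference to -0.96. Its receptor Il1rl2 stood at -2.14, -2.10 and -2.30 in sham and -1.98, -2.03 and -1.67 in adrenalectomized hearts. Those groups did not overlap either, and the difference was 0.29 (SE 0.13, adjusted p = 0.438). The shared accessory chain Il1rap differed by -0.06 (SE 0.13, adjusted p = 0.881).

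The ligands above background on all 6 arrays showed small differences. Il15, which sustains natural killer cells and memory T cells, stood at 1.02, 0.93 and 0.91 in sham and 1.17, 0.46 and 0.64 in adrenalectomized hearts. The 2 low values are those of slide 2, and adrenalectomized replicate 1 was the highest of all. The difference was -0.19 (SE 0.19, adjusted p = 0.707), and with slide as a block it was 0.22 (adjusted p = 0.680). Il17d, a family member made by muscle and other solid tissues, stood at 2.29, 2.26 and 2.11 in sham and 2.19, 2.05 and 2.19 in adrenalectomized hearts, and the groups overlapped. Il16, a chemoattractant for cells that carry Cd4, stood at 0.14, -0.03 and -0.11 in sham and 0.04, -0.10 and 0.33 in adrenalectomized hearts. Their differences were -0.08 (SE 0.11, adjusted p = 0.806) and 0.09 (SE 0.14, adjusted p = 0.833).

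Il18, an inflammasome product released by myeloid cells, stood at -2.76, -2.81 and -2.93 in sham and -2.80, -2.70 and -2.997 in adrenalectomized hearts, with the same mean of -2.83 in both groups. The SE of the difference was 0.12. Il27, a myeloid cytokine that acts through Il27ra and Il6st, stood at -1.08, -1.08 and -1.43 in sham and -1.21, -0.96 and -1.28 in adrenalectomized hearts (difference 0.05, SE 0.15, adjusted p = 0.923). Il28, a lambda interferon, stood at -3.30, -2.93 and -3.84 in sham and -3.34, -3.39 and -3.23 in adrenalectomized hearts (difference 0.04, SE 0.22, adjusted p = 0.960). Its probe also lists a transcript of Ifnl2, so the 2 paralogs cannot be told apart. In each of the 3 genes the groups overlapped.

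The remaining tested ligands also overlapped between groups. Il1b, the inflammasome cytokine that starts fever, stood at -2.77, -4.08 and -3.69 in sham and -4.11, -3.53 and -3.79 in adrenalectomized hearts. Its difference of -0.30 (SE 0.33, adjusted p = 0.751) came from sham replicate 1: without that array it was 0.07. Il25, which drives type 2 responses, differed by 0.55 (SE 0.35, adjusted p = 0.560), and Il12a, a subunit shared by Il12 and Il35, by 0.27 (SE 0.17, adjusted p = 0.559). Each was above background on 1 of the 3 sham and all 3 adrenalectomized arrays. Il13, a type 2 cytokine, differed by 0.13 (SE 0.26, adjusted p = 0.875) and ranged from -4.55 to -3.43 in the adrenalectomized hearts. Its difference was 0.67 with slide as a block (adjusted p = 0.487), -0.14 without adrenalectomized replicate 1 and 0.43 without adrenalectomized replicate 3. Il24, a member of the Il10 family, differed by 0.20 (SE 0.19, adjusted p = 0.695).

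Of the 24 ligands not tested, 10 were above background on at least 1 array. Il11, which acts on stromal cells through Il11ra1, was read on 2 sham and 2 adrenalectomized arrays. Il1f9 was read on 1 of each, Il17b and Il1a on 1 sham array only, Il1f6 on 2 adrenalectomized arrays, and Il19, Il1f10, Il22, Il4 and Il7 on 1 adrenalectomized array each. No level is given for them, because most of their spots carry only an upper limit.

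**Figure D3:**
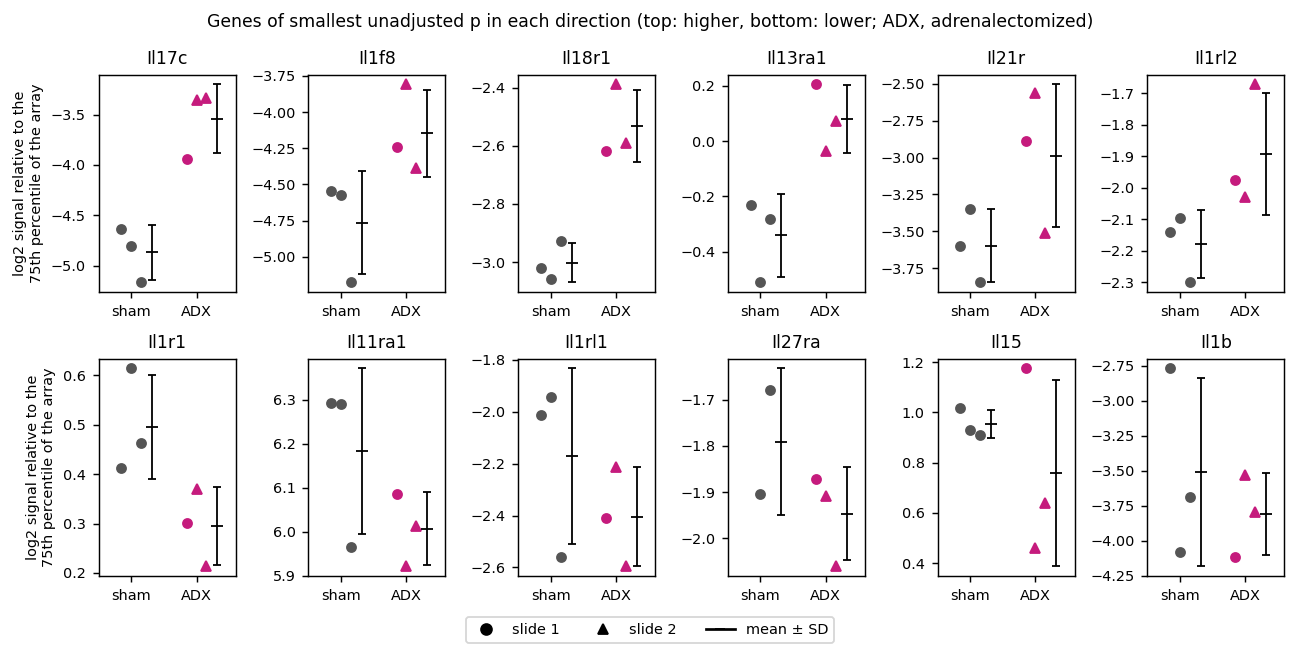
Level of 12 genes on every array (y axis, log2 signal relative to the array's 75th percentile, own scale per panel), with circles for slide 1, triangles for slide 2 and bars for the mean ± SD. The top row holds the 6 genes of smallest unadjusted p on the higher side and the bottom row the 6 on the lower side; Il17c shows the widest gap between groups, while in Il1b a single sham array lies above the rest.

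Among the receptors, Il18r1 and Il13ra1 had the smallest p-values. Il18r1, the ligand-binding chain of the Il18 receptor on T and natural killer cells, stood at -3.02, -3.06 and -2.93 in sham and -2.62, -2.39 and -2.59 in adrenalectomized hearts. All 3 adrenalectomized arrays lay above all sham arrays. The means were -3.002 ± 0.07 and -2.53 ± 0.12 (SD, n = 3 each), a difference of 0.47 (SE 0.11, 1.38-fold, adjusted p = 0.228). With array weights, which call 125 of all genes higher, it was 0.52 (adjusted p = 0.0470). The normexp correction turned it to -0.60. Of the other components of the Il18 system, the ligand had equal means, the partner chain Il18rap was above background on no array, and the soluble inhibitor Il18bp differed by -0.03 (SE 0.14, adjusted p = 0.953).

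Il13ra1, which joins Il4ra to form the receptor for Il13 and Il4 on non-haematopoietic cells, stood at -0.23, -0.51 and -0.28 in sham and 0.21, -0.04 and 0.07 in adrenalectomized hearts. The groups did not overlap, and the highest value was that of adrenalectomized replicate 1, on the same slide as the sham arrays. The means were -0.34 ± 0.15 and 0.08 ± 0.12 (SD, n = 3 each), a difference of 0.42 (SE 0.12, 1.34-fold, adjusted p = 0.286). With slide as a block it was 0.55 (adjusted p = 0.429), and its second probe differed by 0.24 (SE 0.15). Its difference was positive in all 20 alternative settings that were fitted, the normexp correction included. Il4ra, its partner, stood at 1.28, 1.47 and 1.14 in sham and 1.47, 1.30 and 1.61 in adrenalectomized hearts, which overlap (difference 0.17, SE 0.13, adjusted p = 0.647). The decoy Il13ra2 was above background on no array.

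Il21r, the lymphocyte receptor for Il21, stood at -3.60, -3.35 and -3.84 in sham and -2.89, -2.56 and -3.52 in adrenalectomized hearts. Adrenalectomized replicate 3 lay among the sham arrays. The means were -3.60 ± 0.25 and -2.99 ± 0.48 (SD, n = 3 each), a difference of 0.61 (SE 0.25, adjusted p = 0.405). Il2rg, the common gamma chain in the receptors for Il2, Il15, Il21 and several other cytokines, stood at -1.93, -2.24 and -1.33 in sham and -1.26, -1.49 and -1.50 in adrenalectomized hearts. Sham replicate 3 lay among the adrenalectomized arrays, and the difference was 0.41 (SE 0.23, adjusted p = 0.508). Il2rb, the beta chain of the Il2 and Il15 receptors, had equal means within error (difference 0.01, SE 0.31), and Il15ra, which presents Il15 to other cells, differed by 0.13 (SE 0.10, adjusted p = 0.638) with groups that did not overlap.

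Most tested markers of T and B cells also had higher values. Of the 2 natural killer cell markers tested, 1 had a higher and 1 a lower value. Of 8 T cell markers, 7 were tested and 6 had higher values, with a median difference of 0.33. Over all genes tested, 56.6% had a higher value and the median was 0.03. Among the 6, Cd28 passed the filter only through the adrenalectomized group, where it was higher. The summed linear level of the T cell markers, in units of the array's 75th percentile, was 0.565 to 0.776 in sham and 0.707 to 1.01 in adrenalectomized hearts. All of these markers were above background on some array. Of 5 B cell markers, 4 were tested and all 4 had higher values, with a median of 0.77 and a summed level of 0.958 to 1.85 in sham and 1.40 to 3.995 in adrenalectomized hearts. The median B cell marker, relative to its sham mean, stood at -0.41, 0.39 and -0.05 in sham hearts and at -0.01, 1.56 and 0.57 in adrenalectomized hearts. Adrenalectomized replicate 1, on the slide of the sham arrays, lay within the sham range, and the 2 arrays of slide 2 lay above it. No gene of these lists was called, and the part of these cells in the receptor values was not tested. In whole heart RNA, more cells of a type and more RNA per cell cannot be told apart.

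The receptors chosen for their signal in sham hearts differed little between groups. Il11ra1, the receptor chain for Il11 on fibroblasts and heart muscle, stood at 6.29, 6.29 and 5.97 in sham and 6.09, 5.92 and 6.01 in adrenalectomized hearts (difference -0.18, SE 0.13, adjusted p = 0.608). Sham replicate 3 lay among the adrenalectomized values, and a second probe gave -0.18 as well. Both probes list a transcript of the paralog Il11ra2 beside Il11ra1, so the reading is uncertain between them. Il10rb, a chain shared by the receptors of Il10, Il22 and the lambda interferons, stood at 5.06, 4.95 and 4.82 in sham and 4.94, 4.83 and 4.92 in adrenalectomized hearts, which overlap (difference -0.05, SE 0.11, adjusted p = 0.884). Il6st, which transmits Il6, Il11 and related signals, stood at 3.36, 3.47 and 3.50 in sham and 3.58, 3.34 and 3.57 in adrenalectomized hearts, which overlap too (difference 0.05, SE 0.11, adjusted p = 0.882). Il6ra, the ligand-binding chain for Il6, differed by 0.05 (SE 0.12, adjusted p = 0.887), so no component of the Il6 receptor differed by more than its error.

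Il17rc, a partner of Il17ra for Il17a and Il17f, stood at 2.26, 2.30 and 2.10 in sham and 2.12, 2.46 and 2.25 in adrenalectomized hearts. The groups overlapped, with a difference of 0.06 (SE 0.13, adjusted p = 0.886). Il17ra stood at -2.96, -2.81 and -2.98 in sham and -2.74, -2.73 and -2.72 in adrenalectomized hearts, which do not overlap, and its dimmer probe differed by 0.44 (SE 0.16, adjusted p = 0.314 over all probes). The normexp correction turned its difference to -0.65. Il28ra, the specific chain for the lambda interferons, stood at -0.08, -0.27 and -0.23 in sham and -0.31, -0.36 and -0.08 in adrenalectomized hearts. These overlap, with a difference of -0.06 (SE 0.12, adjusted p = 0.882).

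Il3ra, which pairs with the common beta chain to bind Il3, stood at 0.56, 0.72 and 0.62 in sham and 0.97, 0.85 and 0.74 in adrenalectomized hearts. The groups were separated by little, and the difference was 0.23 (SE 0.11, adjusted p = 0.457). Il10ra, the specific chain of the Il10 receptor on leukocytes, stood at -1.03, -0.96 and -0.88 in sham and -0.87, -0.68 and -0.80 in adrenalectomized hearts. The nearest arrays of the groups were almost level, and the difference was 0.17 (SE 0.11, adjusted p = 0.551).

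On the lower side no receptor had an unadjusted p under 0.05. Il1r1, the signalling receptor for Il1a and Il1b, stood at 0.41, 0.61 and 0.46 in sham and 0.30, 0.37 and 0.21 in adrenalectomized hearts. Every adrenalectomized array lay below every sham array, the one tested gene of the family with that order (difference -0.20, SE 0.11, adjusted p = 0.496). Il1rl1, the Il33 receptor known as ST2, stood at -2.01, -1.94 and -2.56 in sham and -2.41, -2.21 and -2.59 in adrenalectomized hearts, with sham replicate 3 among the adrenalectomized arrays (difference -0.23, SE 0.19, adjusted p = 0.653). These are values of the probe for transcript variant 1, which was above background on all 6 arrays, while of 2 probes with the accession of variant 2 the printed one was above it on none and the other on sham replicate 2 only. Il27ra, the specific chain for Il27, had no usable value on sham replicate 1. It stood at -1.90 and -1.68 on the other sham arrays and at -1.87, -1.91 and -2.06 on the adrenalectomized arrays (difference -0.16, SE 0.14, adjusted p = 0.677).

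The other tested genes overlapped between groups. Il17rd, an Il17 receptor family member that restrains Fgf signalling, differed by 0.24 (SE 0.14, adjusted p = 0.538). Il22ra1, the Il22 receptor chain of epithelia, differed by 0.15 (SE 0.18, adjusted p = 0.766). Il8rb, a chemokine receptor of neutrophils, differed by 0.17 (SE 0.14, adjusted p = 0.654), and Il4i1 by 0.28 (SE 0.23, adjusted p = 0.651). Of the 17 receptors not tested, 10 were above background on some array. Il7r and Il12rb1 were read on 1 sham and 2 adrenalectomized arrays, Il2ra on 1 of each, Il9r on 2 adrenalectomized arrays, and Il17rb, Il1rapl2, Il1rn, Il20ra, Il23r and Il31ra on 1 adrenalectomized array each.

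**Figure D4:**
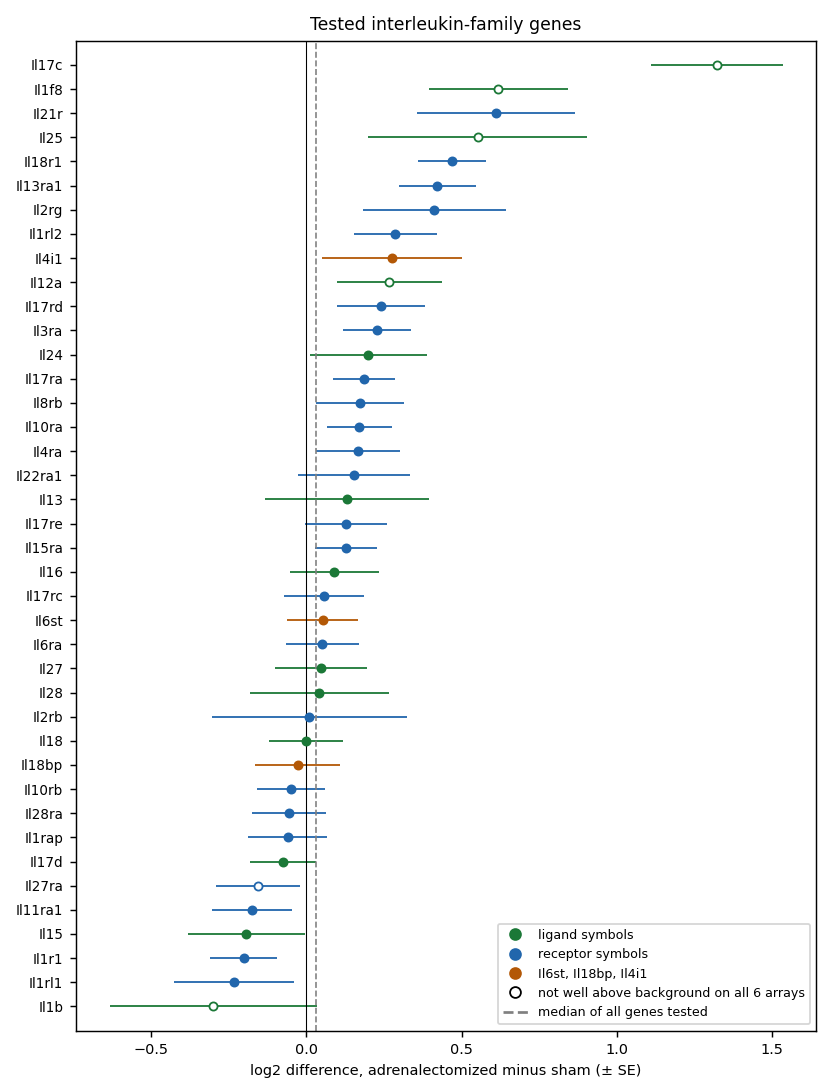
Log2 difference (x axis, adrenalectomized minus sham, ± SE) of the 40 tested genes, ordered by size, with ligands in green, receptors in blue and Il6st, Il18bp and Il4i1 in orange; open points were not above background on all 6 arrays and the dashed line is the median of all genes, 0.03. Most values lie within 0.3 of 0, and the topmost, Il17c at 1.32, is an open point that no sham array read above background.

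Genes with 2 tested probes give a check within the array. There were 10 of them, and in 9 both probes had the same sign: 6 higher and 3 lower. The exception was Il18bp, whose probes differed by -0.03 and 0.01. The agreement of sign is only between probes on the same arrays and adds no replicate.

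**Figure D5:**
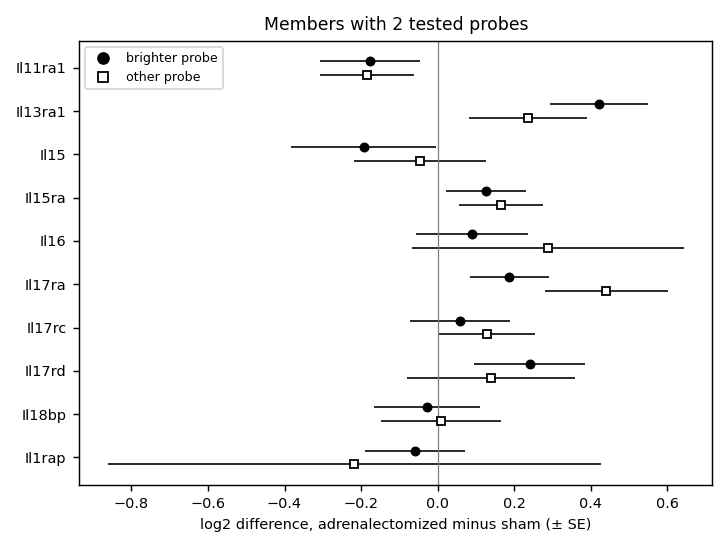
Log2 difference (x axis, adrenalectomized minus sham, ± SE) of both probes of each gene with 2 tested probes; filled circles are the brighter probe used for the gene and open squares the other. The probes lie on the same side of 0 in 9 of 10 genes, and the dimmer Il17ra probe differs more than the brighter one.

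The signalling genes downstream of these receptors were described from a list of 62, of which 58 were on the array and not already counted. Of these, 55 were tested and none was called, with 33 higher and 22 lower values and a median difference of 0.04. At an unadjusted p under 0.05, limma gave 2 on each side, beside 6.27% and 5.99% of all genes tested. On the higher side the 3 smallest p-values were those of Bcl6, a transcriptional repressor, with 0.61 (SE 0.15, adjusted p = 0.247), Stat4, which carries the Il12 signal, with 0.64 (SE 0.19, adjusted p = 0.280), and Casp1, which cleaves the Il1b and Il18 precursors, with 0.31 (SE 0.13, adjusted p = 0.413). On the lower side they were Adam10, a sheddase of cytokine receptors, with -1.55 (SE 0.59, adjusted p = 0.372), Stat3, which carries the Il6 and Il10 signals, with -0.55 (SE 0.23, adjusted p = 0.398), and Ptpn11, a phosphatase of Il6st signalling, with -0.29 (SE 0.15, adjusted p = 0.486). Stat4 was above background on 1 sham array and all 3 adrenalectomized arrays, so it passed the filter through the group where it was higher. Adam10 was above background on 3 sham and 2 adrenalectomized arrays, and without sham replicate 2 its difference was -0.83. Stat3 stood at 4.02, 4.43 and 3.66 in sham and 3.18, 3.69 and 3.58 in adrenalectomized hearts, so that adrenalectomized replicate 2 overlapped sham replicate 3. Socs3, a feedback inhibitor that Stat3 induces, differed by -0.03 (SE 0.13, adjusted p = 0.949).

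Markers of other cells in the heart were read as lists, none of which had a called gene. All 5 cardiomyocyte markers were tested, 1 with a higher and 4 with lower values (median -0.17; smallest p for Tnni3, -0.29, and Tnnt2, -0.21). Of 9 macrophage markers 3 had higher and 6 lower values (median -0.10; Cd163 -0.35, C1qb -0.15), and of 6 mast cell markers 3 each (median -0.05; Kit 0.40, Cma1 -0.22). Endothelial markers gave 1 higher and 4 lower (median -0.26; Vwf -0.64, Tek -0.26), and all 5 fibroblast and all 4 smooth muscle markers had lower values (medians -0.20 and -0.51; Dcn -0.32 and Pdgfra -0.20, Tagln -0.69 and Myh11 -0.33). Without sham replicate 2 the differences of the smooth muscle markers Acta2 and Cnn1 turned to 0.46 and 0.02. Those of Tagln and Myh11 shrank to -0.40 and -0.17. All 5 adipocyte markers had higher values (median 1.79; Ucp1 2.88, Plin1 1.79), with a summed level of 266 to 371 in sham and 335 to 545 in adrenalectomized hearts. Fabp4, the brightest of them, made up most of that sum and differed by 0.30. The median adipocyte marker, relative to its sham mean, stood at -1.36, 0.86 and 0.41 in sham and 0.49, 2.63 and 2.25 in adrenalectomized hearts. Adrenalectomized replicate 1, on the slide of the sham arrays, lay within the sham range, and the arrays of slide 2 lay above it. Mesothelial markers gave 3 higher and 1 lower (median 0.03; Upk3b -0.33, Wt1 0.06).

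Of the blood cell lists, the smallest p-values were those of Cd28 (0.50) and Cd3g (0.33) for T cells and of Cd22 (0.86) and Cd79b (0.78) for B cells. Cd28 was above background on 1 sham array only, and Cd3e (-0.22) was the T cell marker with a lower value. Of 4 thymocyte markers, Dntt (0.86) and Cd1d1 (1.07) were tested and had higher values, while Rag1 and Ptcra were above background on no array. Of 5 natural killer cell markers 2 were tested, Nkg7 (0.31) and Klrb1c (-0.09). Apart from Cxcr2, which is Il8rb, 3 of 4 neutrophil markers on the array were tested, 1 with a higher and 2 with lower values, S100a9 at -0.29 among them. Of 4 eosinophil markers Prg2 (0.57) and Ccr3 (1.08) were tested, with 1 and 2 sham arrays above background, and without sham replicate 1 the Ccr3 difference turned to -0.13. Epx and Siglecf were above background on no array. Of 4 erythroid markers Slc4a1 (0.92) and Alas2 (0.77) were tested. In both, adrenalectomized replicate 3 lay below every sham array, and the other adrenalectomized arrays lay above every sham array. The part of any of these cells in the interleukin values was not tested.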

How the data were processed

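Heart RNA of 6 mice (2 groups of 3) was read on one-colour Agilent mouse arrays. Per the labels' protocols, 50 ng of RNA was amplified and 5 µg of cDNA labelled with Cy3. The authors deposited scanner files of intensity per spot, made with Feature Extraction 9.5.3.1, per the file headers (9.5 per the submitters' processing notes). The intensity values of the deposited value table were equal to those of the scanner files at all 45018 spots of each array. The samples are called biological replicates in the design text.

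The values were log2 processed signal minus each array's 75th percentile, without control spots and outlier flags. Spots of a probe were averaged. Tests were limited to probes that the scanner marked well above background on all 3 arrays of either group, with the probe of highest mean standing for its gene. Groups were compared with limma 3.58.1 in R 4.3.3 (lmFit, eBayes), and p-values were adjusted over all 16949 genes by Benjamini-Hochberg, with calls at under 0.05. No covariate was used. The fit was tested on simulated data. An exact permutation test of 3 against 3 cannot go below 0.1 and was not used. Gene names came from the files, and 22944 of 41174 probes matched RefSeq (GRCm38.p6, names only).

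The interleukin genes, the signalling list and the marker lists were chosen with earlier results of these data known. Values on every array are given for the genes above background on all arrays with the highest sham mean, up to 6 ligands and 8 receptors or subunits, for the 6 smallest p-values in each direction, and for genes above background in one group only. Il10ra, Il17ra, Il2rg and Stat3 were shown by array after their values were seen. Background correction, normalization, filter, probe rule, slide, array weights and left-out arrays were varied.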

Additional observations from a re-analysis of the deposited data

How the results depend on the processing

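The counts of interleukin genes called, 0 higher and 0 lower, held in all but 2 of the 20 alternative settings and at an adjusted p under 0.10. With a normexp correction on the local background, which differs between the slides, 17 interleukin genes were called lower and 0 higher, among 1091 higher and 4566 lower of all genes. The ligand median became -0.82, the receptor median -0.14, and 14 signalling genes were called. There the difference turned and was called for Il12a (-0.99), Il13 (-0.95), Il17c (-0.73), Il17ra (-0.65), Il18r1 (-0.60), Il1f8 (-0.96), Il22ra1 (-0.70), Il24 (-0.82), Il25 (-1.53), Il28 (-0.96), Il2rb (-0.64), Il6ra (-0.74) and Il8rb (-0.77); the cause was not tested. With array weights 2 interleukin genes, Il17c and Il18r1, were called higher, and 1 signalling gene was called, among 125 higher and 178 lower of all genes; the cause was not tested.

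Unadjusted p-values under 0.05 marked 5 interleukin genes on the higher side and 0 on the lower. With slide as a block there were 3 and 0 (5.19% and 4.78% of all genes), of which 2, Il17c and Il13ra1, were among the 5 and the other was Il13. With array weights there were 9 and 1 (11.6% and 12.7% of all genes), among them all 5. Leaving out each array in turn called no interleukin gene (over all genes 0 to 8 higher and 1 to 2 lower), and the median stayed between 0.04 and 0.14 for ligands and between 0.07 and 0.17 for receptors. Same-numbered deviations correlated at 0.16, 0.16 and -0.16, within the range of -0.31 to 0.18 over all combinations of arrays. With 3 arrays a group, these values cannot settle whether the replicate numbers pair the samples. With the replicate block the counts were 0 higher and 0 lower, the medians 0.09 and 0.14, and 0 signalling genes were called. Of the 40 tested genes, 8 kept their sign in every setting fitted and 32 changed it at least once. Leaving out a single array turned the sign of 13, whose differences were at most 0.30 in size. With 3 arrays a group, and 2 adrenalectomized arrays on a slide without sham arrays, slide and group are separated only through adrenalectomized replicate 1.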
